A study of Mus musculus with 8 samples.

Results

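The genes described here are 8 genes of the sterol regulatory element-binding protein (SREBP) system and of cholesterol synthesis, *Srebf1*, *Srebf2*, *Insig1*, *Hmgcs1*, *Idi1*, *Fdps*, *Fdft1* and *Sqle*. They were taken by gene symbol from a table of RNA sequencing counts for 12551 genes, and all 8 were present. The RNA came from whole tibialis anterior (TA) muscles of male mice aged 7 weeks, 4 WT and 4 homozygous for the Klotho mutation (KL-/-), littermates according to the public record. Both genotypes came from crosses of Klotho+/- mice on a mixed background, and the mutation is carried by every tissue, so it is not limited to muscle. Replicates are numbered individual mice. Whole muscle holds several cell types, and a lower value cannot be told apart between fewer cells of a type and less RNA per cell.

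SREBP transcription factors are made as precursors that sit in the membrane of the endoplasmic reticulum. When sterols are scarce, the escort protein SCAP carries them to the Golgi, where proteases release the part that enters the nucleus. When sterols are plentiful, INSIG proteins hold SCAP and its cargo back. SREBP-2, from *Srebf2*, mainly activates genes of cholesterol synthesis and uptake, and SREBP-1, from *Srebf1*, mainly those of fatty acid synthesis. *Insig1* is itself an SREBP target, so its transcript is often read beside those of the enzymes. Skeletal muscle makes sterols and other isoprenoids through the same mevalonate pathway as other tissues, and membranes, coenzyme Q and protein prenylation draw on it.

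In KL-/- muscle 3 of the 8 genes fell and 1 rose. By fitted fold change, *Srebf2* fell by 28.3%, *Insig1* by 32.6% and *Hmgcs1*, which encodes the enzyme that makes HMG-CoA, by 13.3%. In contrast, *Fdft1*, which encodes squalene synthase, was 61.9% higher. *Srebf1*, *Sqle*, *Idi1* and *Fdps* had lower means in KL-/- muscle but did not pass the test. The test was edgeR's quasi-likelihood test over all 12551 genes, with Benjamini-Hochberg adjustment (FDR) and a threshold of 0.05. Values are CPM, counts scaled to the size of each library with TMM factors, and fold changes are KL-/- over WT. By this test 14.0% of all genes passed, 7.35% higher and 6.67% lower in KL-/- muscle, and the 4 of 8 is to be read against that share. In 4 of the 8 genes the ranges of the genotypes did not overlap, as in 19.7% of all genes. The median log2 fold change of the 8 genes was −0.34, beside −0.016 over all genes tested, and 7 of the 8 were negative.

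Promoter sequence was at hand for 5 of the 8 genes. It is shown for *Srebf2*, *Insig1* and *Hmgcs1*, the genes that fell, because SREBP-2 and its partner NF-Y are known to act at sites in promoters of this kind. The sequences are RefSeq's on GRCm38.p6 (mm10), 5′ to 3′ on the strand of the gene, and stop at the RefSeq start or, in *Srebf2* and *Insig1*, before it, where an earlier GENCODE M21 transcript of the gene begins. Distances are counted from the RefSeq start. Capitals mark the sterol regulatory element (SRE) letters TCACCCCA or CACCCCAC, the NF-Y letters CCAAT, which read ATTGG where the box is on the other strand, and the E-box CACGTG.
*Srebf2*, chr15:82147019-82147180, plus strand: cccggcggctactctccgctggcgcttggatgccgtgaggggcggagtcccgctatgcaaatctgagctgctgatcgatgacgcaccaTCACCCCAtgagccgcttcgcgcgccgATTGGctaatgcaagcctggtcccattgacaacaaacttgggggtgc
*Insig1*, chr5:28071162-28071362, plus strand: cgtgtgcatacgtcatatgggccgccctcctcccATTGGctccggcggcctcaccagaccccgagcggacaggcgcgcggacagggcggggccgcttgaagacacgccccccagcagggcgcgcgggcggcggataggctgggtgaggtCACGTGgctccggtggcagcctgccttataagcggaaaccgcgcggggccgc
*Hmgcs1*, chr13:119690101-119690350, plus strand: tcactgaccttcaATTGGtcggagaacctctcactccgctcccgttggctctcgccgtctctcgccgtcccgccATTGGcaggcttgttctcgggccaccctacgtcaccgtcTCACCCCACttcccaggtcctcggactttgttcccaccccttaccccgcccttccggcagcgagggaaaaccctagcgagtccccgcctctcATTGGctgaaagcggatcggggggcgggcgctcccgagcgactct

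Both strands of the window from 250 bases before to 50 bases after each RefSeq start were searched. In *Hmgcs1* the letters TCACCCCAC, which hold both SRE spellings, begin 137 bases before the start, with ATTGG at 237, 176 and 45 bases before it. A further ATTGG of *Hmgcs1* lies after the start, beyond the sequence shown. In *Srebf2* TCACCCCA begins 162 bases and ATTGG 135 bases before the start, and CACCCCAC was not found. *Insig1* has ATTGG 216 and CACGTG 101 bases before the start, and neither SRE spelling in this window. Among all 32851 promoters of 300 bases, CACCCCAC is in 2.87%, TCACCCCA in 1.56%, CACGTG in 7.15% and CCAAT in 37.4%. The looser spelling TCACNCCAC, in 1.24%, was found in no other of these windows than that of *Hmgcs1*, and the GC box GGGCGG, in 35.7%, was in those of all 5 genes. Among the 12265 such promoters of genes in the count table the shares were 3.23% for CACCCCAC, 1.51% for TCACCCCA, 9.93% for CACGTG, 36.9% for CCAAT, 1.17% for TCACNCCAC and 61.9% for GGGCGG. The spelling TCACCCCA was added after these sequences had been seen. The window of *Idi1* holds 2 CCAAT boxes and no SRE spelling, and that of *Srebf1*, with 3 alternative starts, holds CCAAT at 2 of them. These are matches of letters and not measured binding.

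The libraries held 20860262 to 29273758 counts, and the totals overlapped between genotypes (exact permutation test, two-sided, p = 0.371, where 0.0286 is the smallest p possible). A count of 3, taken as the floor, was 0.105 to 0.143 CPM. *Kl* itself is not in the table, so the genotypes could not be checked from its transcript. KL-/- replicate 3 alone has a different batch date, and that date cannot be told apart from the mouse. All 6 muscle fibre markers were measured, at sums of 80999 to 95390 CPM in WT muscles and 94154 to 122193 CPM in KL-/- muscle. All 6 had positive log2 fold changes, with a median of 0.25, and 0 passed. Marker sums of other cell types ran from 57.4 to 102 CPM in WT muscles and 107 to 132 CPM in KL-/- muscle for 7 Schwann cell genes (4 passed, higher), from 461 to 1350.01 and 234 to 650 CPM for 4 fibroblast genes (2 passed, lower), from 56.9 to 120.3 and 42.2 to 71.9 CPM for 7 macrophage genes (1 passed, lower), from 356 to 536 and 318 to 352 CPM for 4 endothelial genes (1 passed, lower), and from 185 to 216 and 216 to 293 CPM for 5 of 7 adipocyte genes (1 passed, higher). The adipocyte sums were mostly *Fabp4*, the adipocyte gene that passed, whose mean went from 187 to 225 CPM (FDR = 0.0300). *Adipoq*, *Cidec*, *Cfd* and *Retn* were far scarcer, overlapped between the genotypes and did not pass. The adipocyte sums therefore do not show that these scarcer genes were higher in every KL-/- muscle. None of the markers measured was at 0 in any library. Their part in the results below was not tested.

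*Srebf2* (chr15:82147269-82204960, plus strand) was at 24.0, 24.7, 26.4 and 22.0 CPM in WT replicates 1 to 4. In KL-/- replicates 1 to 4 it was at 17.2, 15.8, 15.5 and 21.0 CPM. No KL-/- value reached the lowest WT value, and the smallest gap, between KL-/- replicate 4 and WT replicate 4, was narrow. The means were 24.3 ± 1.81 and 17.4 ± 2.55 CPM (SD, n = 4), and the log2 fold change was −0.48 ± 0.11 (SE, FDR = 0.0210). With 1 mouse left out at a time the log2 fold change lay between −0.59 and −0.43. The FDR rose to 0.0570 without WT replicate 2, 0.0617 without WT replicate 3 and 0.0583 without KL-/- replicate 3, and stayed under the threshold in the other 5 fits.

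*Srebf1* (chr11:60199089-60220604, minus strand) was at 88.3, 56.3, 62.4 and 87.1 CPM in WT muscles and at 67.6, 26.9, 56.4 and 56.2 CPM in KL-/- replicates 1 to 4. The genotypes overlapped, and KL-/- replicate 2 was lowest, far from the other 3. Its log2 fold change was −0.50 ± 0.26 (SE, FDR = 0.204), about the size of that of *Srebf2* with a larger error. Without KL-/- replicate 2 it was −0.28. Counts of *Srebf1* per count of *Srebf2* were 3.07 ± 0.871 in WT against 2.99 ± 1.01 in KL-/- muscle (SD, n = 4), with overlap. Gene counts do not separate the SREBP-1a and SREBP-1c forms, which start at different promoters.

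*Insig1* (chr5:28071412-28078662, plus strand), which encodes the retention protein that SREBP-2 also induces, was at 22.7, 23.5, 21.4 and 18.3 CPM in WT replicates 1 to 4. In KL-/- replicates 1 to 4 it was at 11.2, 15.03, 14.8 and 16.8 CPM. All KL-/- samples were below all WT samples, with KL-/- replicate 1 the lowest. The log2 fold change was −0.57 ± 0.13 (SE, FDR = 0.0223), from means of 21.4 ± 2.30 and 14.5 ± 2.36 CPM (SD, n = 4). It ranged from −0.65 to −0.45 with single mice left out. The FDR was 0.0524, 0.0637 and 0.0573 without WT replicates 1, 2 and 3 and 0.0539 without KL-/- replicate 3.

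The related *Insig2*, which is not under the same sterol control in most tissues, was at 62.5 ± 3.70 and 64.6 ± 2.49 CPM (SD, n = 4; log2 fold change 0.048 ± 0.061 (SE), FDR = 0.617). Its sign turned negative, at −0.070, when libraries were scaled by their totals. Counts of *Insig1* per count of *Insig2* do not depend on library scaling. The ratio was 0.358, 0.384, 0.367 and 0.272 in WT and 0.174, 0.238, 0.217 and 0.267 in KL-/- replicates 1 to 4. The genotypes were apart in this ratio, though WT replicate 4 and KL-/- replicate 4 nearly met. *Scap*, the escort protein gene, was at 28.9 ± 0.616 and 32.6 ± 1.88 CPM (log2 fold change 0.18 ± 0.062 (SE), FDR = 0.0875). Its ranges did not overlap, yet it did not pass with all 8 mice, and its FDR was 0.0336 without KL-/- replicate 2. *Srebf2* per count of *Scap* was 0.842 ± 0.0658 in WT against 0.534 ± 0.0730 in KL-/- muscle, without overlap. That follows from the CPM ranges of both genes, which were apart in opposite directions, and is no separate result.

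**Figure D1:**
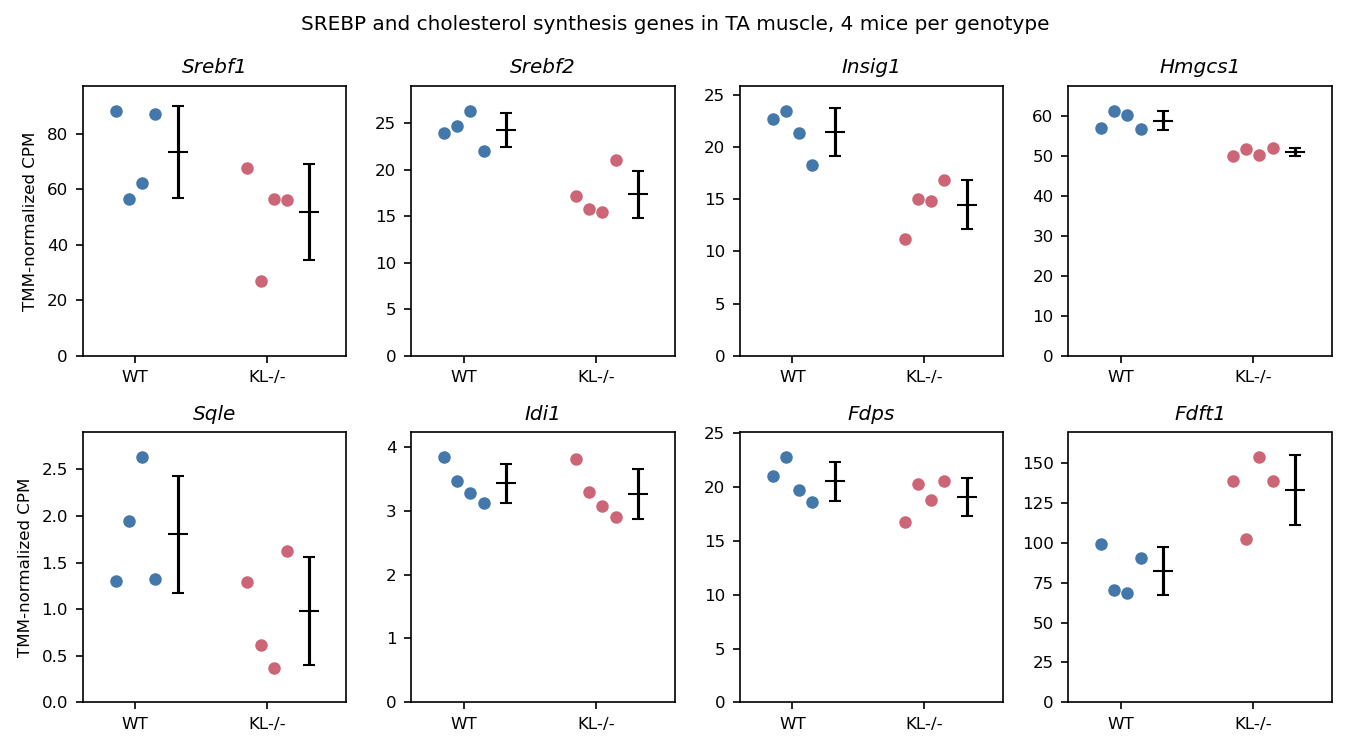
TMM-normalized CPM (y axes, from 0, a separate scale per gene) of the 8 genes in 4 WT and 4 KL-/- TA muscles. Points are mice, replicates 1 to 4 from left to right, and bars are mean ± SD. The points of *Srebf2*, *Insig1* and *Hmgcs1* lie lower in all 4 KL-/- mice than in any WT mouse, and those of *Fdft1* lie higher.

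The enzymes follow in the order of the pathway. *Hmgcs1* (chr13:119690351-119708260, plus strand) encodes cytosolic HMG-CoA synthase, an early enzyme of the pathway. It was at 57.0, 61.2, 60.1 and 56.6 CPM in WT muscles and at 50.004, 51.6, 50.2 and 51.8 CPM in KL-/- replicates 1 to 4. The 4 KL-/- values lay close together and under all WT values. The change was small, a log2 fold change of −0.21 ± 0.053 (SE, FDR = 0.0326), from means of 58.7 ± 2.31 and 50.9 ± 0.913 CPM (SD, n = 4). Its size hardly moved with 1 mouse left out, −0.22 to −0.19, but it passed in only 2 of these 8 fits, those without WT replicate 4 and without KL-/- replicate 2. In the other 6, without WT replicates 1, 2 or 3 or KL-/- replicates 1, 3 or 4, the FDR was 0.0516 to 0.0939. An antisense gene of GENCODE M21 overlaps 15.6% of its exon length, and whether the counting used strand is not stated in the sources used here.

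*Idi1* (chr13:8885606-8892396, plus strand) encodes the isomerase that interconverts the isoprenoid building blocks. It was at 3.84, 3.47, 3.28 and 3.12 CPM in WT muscles and at 3.80, 3.29, 3.07 and 2.90 CPM in KL-/- replicates 1 to 4. The ranges almost coincided, with a log2 fold change of −0.064 and a standard error of 0.14 (FDR = 0.774).

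*Fdps* (chr3:89093588-89101967, minus strand), farnesyl diphosphate synthase, makes the last intermediate shared by sterols and the other isoprenoids. It was at 21.0, 22.8, 19.7 and 18.6 CPM in WT muscles and at 16.7, 20.3, 18.8 and 20.5 CPM in KL-/- replicates 1 to 4. The genotypes overlapped, and the log2 fold change was −0.10 ± 0.092 (SE, FDR = 0.463). GENCODE M21 places another gene model, which is not in the count table, on the same strand over 76.9% of its exon length. Whether the counting treated these as separate genes is not given in the sources used here, and the level of *Fdps* is uncertain.

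*Fdft1* (chr14:63145151-63179578, minus strand) encodes squalene synthase, the first enzyme that commits farnesyl diphosphate to sterols. In WT replicates 1 to 4 it was at 99.2, 70.6, 68.7 and 90.2 CPM. In KL-/- replicates 1 to 4 it was at 138, 102, 154 and 138 CPM. Each KL-/- value was above each WT value, but KL-/- replicate 2 lay just above WT replicate 1. The means were 82.2 ± 14.9 and 133 ± 21.8 CPM (SD, n = 4), and the log2 fold change was 0.70 ± 0.15 (SE, FDR = 0.0182). Leaving out single mice gave 0.62 to 0.81. The FDR was 0.0548 and 0.0526 without WT replicates 2 and 3 and 0.0509 and 0.0524 without KL-/- replicates 3 and 4.

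*Fdft1* rose, while its neighbours *Fdps* and *Sqle* had lower means in KL-/- muscle without passing the test. *Fdft1* counts per *Fdps* count were 4.72, 3.10, 3.49 and 4.84 in WT and 8.26, 5.03, 8.16 and 6.73 in KL-/- replicates 1 to 4. Per *Hmgcs1* count they were 1.41 ± 0.306 in WT against 2.62 ± 0.455 in KL-/- muscle (SD, n = 4). These ratios were both apart between the genotypes. For *Hmgcs1* this follows from the CPM ranges, which were apart in opposite directions, and is no separate result. The 3′ end of *Fdft1* shares 773 bases, 20.9% of its exon length, with *Ctsb* on the other strand, which encodes cathepsin B. *Ctsb* averaged 387 ± 6.98 CPM in WT against 401 ± 18.1 CPM in KL-/- muscle (log2 fold change 0.052, FDR = 0.546; −0.066 with library totals). *Fdft1* counts per *Ctsb* count were 0.213 ± 0.0400 in WT against 0.334 ± 0.0646 in KL-/- muscle (SD, n = 4), and here the genotypes overlapped, with WT replicate 1 at 0.255 above KL-/- replicate 2 at 0.240. Without the strand setting, reads from the shared stretch cannot be assigned to 1 of these genes, and their part in the *Fdft1* result was not tested.

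*Sqle* (chr15:59315092-59331193, plus strand), squalene epoxidase, acts next, on squalene. It was the least abundant of the 8 genes, with 32, 42, 69 and 37 counts in WT and 37, 13, 9 and 43 counts in KL-/- replicates 1 to 4. These were 1.31, 1.94, 2.63 and 1.33 CPM in WT muscles and 1.29, 0.620, 0.373 and 1.62 CPM in KL-/- muscle. KL-/- replicates 2 and 3 were lowest, while replicates 1 and 4 were within or next to the WT range. The log2 fold change was −0.84 ± 0.41 (SE, FDR = 0.187), and single mice moved it from −1.18 to −0.57. At this depth a difference of that size could not be separated from the spread between mice.

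Per kilobase of exon length the order of the 8 genes over all 8 muscles was *Fdft1* (mean 29.1 CPM per kb), *Hmgcs1* (15.3), *Srebf1* (14.6), *Fdps* (13.6), *Insig1* (6.78), *Srebf2* (4.56), *Idi1* (1.17) and *Sqle* (0.505). *Fdft1* was above *Hmgcs1* in 8 of 8 muscles. *Hmgcs1* exceeded *Srebf1* in 5 of 8, and *Srebf1* exceeded *Fdps* in 5 of 8, so these neighbours were not separated. Their order differed between the genotype means, with *Srebf1* at 17.1 CPM per kb above *Hmgcs1* at 16.4 and *Fdps* at 14.1 in WT, and at 12.0 below *Hmgcs1* at 14.2 and *Fdps* at 13.1 in KL-/- muscle. From *Fdps* down, each gene was above the next in 8 of 8 muscles.

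**Figure D2:**
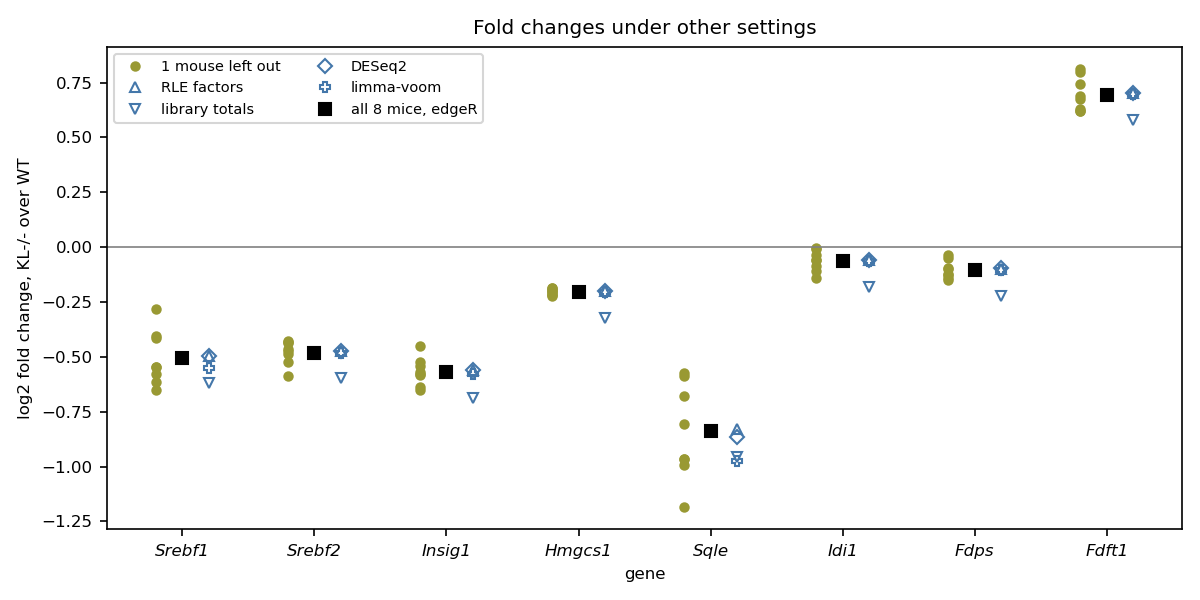
Log2 fold change of KL-/- over WT (y axis) for each of the 8 genes with all 8 mice (squares), with 1 mouse left out (filled circles) and with other scalings or tools (open symbols). *Srebf2*, *Insig1* and *Hmgcs1* stay negative and *Fdft1* stays positive in every fit plotted, while library totals place all 8 genes lower.

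The other enzymes of sterol synthesis were taken from a list of 22, of which 21 were measured. In it 5 genes fell, 1 rose and 15 did not pass, beside 14.0% of all genes that passed, with a median log2 fold change of −0.20. Besides *Hmgcs1*, the genes that fell included *Cyp51*, *Sc5d* and *Dhcr7*, which act after squalene has been closed to a ring. *Cyp51*, lanosterol demethylase, was at 9.06, 9.11, 9.07 and 9.57 CPM in WT muscles and 7.85, 6.54, 7.21 and 6.33 CPM in KL-/- replicates 1 to 4. The WT values were nearly equal and all above the KL-/- values (log2 fold change −0.40 ± 0.096 (SE), FDR = 0.0268). *Cyp51* shares 637 bases with *Akap9* on the other strand, which was also counted.

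*Sc5d*, a sterol desaturase, was at 25.3 ± 1.95 and 19.6 ± 1.15 CPM (SD, n = 4; log2 fold change −0.37 ± 0.078 (SE), FDR = 0.0172). *Dhcr7*, the reductase that completes one branch to cholesterol, was at 11.8, 11.8, 11.1 and 10.1 CPM in WT muscles and 7.64, 8.35, 6.63 and 8.29 CPM in KL-/- replicates 1 to 4. No KL-/- value reached the WT range (log2 fold change −0.53 ± 0.10 (SE), FDR = 0.0118), and *Dhcr7* passed in all 8 fits with 1 mouse left out. *Sc5d* had an FDR of 0.0539 without KL-/- replicate 3, and *Cyp51* passed only without KL-/- replicates 1 or 2. *Lbr*, which has sterol reductase activity and was the most abundant other enzyme of the list, was at 28.7 ± 0.888 and 28.9 ± 2.21 CPM (log2 fold change 0.0092, FDR = 0.940), and its sign turned negative with library totals and in 3 fits with 1 mouse left out. A gene on the other strand overlaps 13.0% of its exon length.

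**Figure D3:**
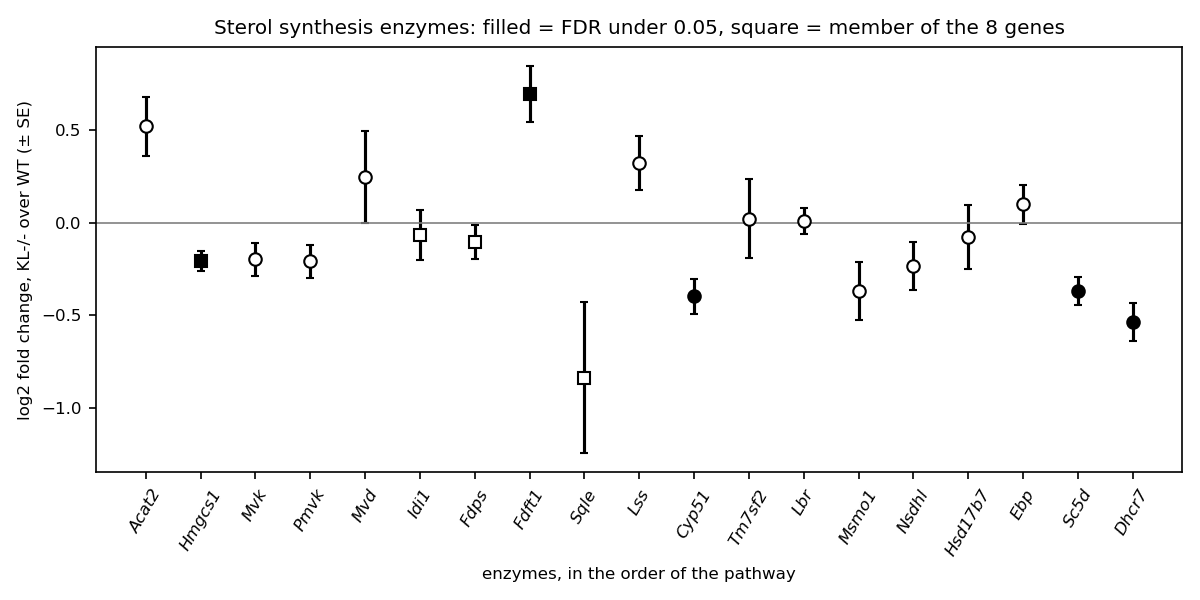
Log2 fold change of KL-/- over WT with its standard error (y axis) for 19 of the 21 measured sterol synthesis enzymes, in pathway order (x axis). Filled symbols have an FDR under 0.05 and squares are among the 8 genes. *Fdft1* is the only filled symbol above 0, and *Sc5d* and *Dhcr7*, at the right, are filled and below 0.

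Among 20 genes of SREBP processing and sterol sensing, 2 fell, which were *Srebf2* and *Insig1*, and 1 rose, a share close to the 14.0% over all genes, with a median log2 fold change of −0.059. The gene that rose was *Rnf145*, a ubiquitin ligase of the endoplasmic reticulum that acts on SCAP. It was at 12.1, 11.4, 11.7 and 10.6 CPM in WT muscles and 16.9, 14.0, 15.8 and 16.1 CPM in KL-/- replicates 1 to 4. The ranges were clearly apart (log2 fold change 0.45 ± 0.085 (SE), FDR = 0.0112), and it passed with any single mouse left out.

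Of 22 genes of cholesterol uptake, storage and efflux, 20 were measured, and 2 fell and 1 rose, again close to the 14.0% over all genes, with a median log2 fold change of 0.056. *Mylip*, a ubiquitin ligase of lipoprotein receptors and a target of the liver X receptors, was at 19.2, 21.9, 17.1 and 21.0 CPM in WT muscles and 28.0, 26.0, 28.6 and 28.6 CPM in KL-/- muscle. All KL-/- values were higher (log2 fold change 0.49 ± 0.087 (SE), FDR = 0.00910), also with any mouse left out.

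*Abcg4*, a sterol transporter, was scarce, with 22 to 38 counts in WT and 11, 11, 4 and 2 counts in KL-/- replicates 1 to 4 (log2 fold change −2.02 ± 0.41 (SE), FDR = 0.0155). The value of KL-/- replicate 4 was under the floor of 3 counts, so the size of this change is poorly fixed. *Vldlr*, the VLDL receptor and the most abundant gene of the list, was at 418 ± 91.4 and 308 ± 54.0 CPM (log2 fold change −0.44 ± 0.17 (SE), FDR = 0.104, and 0.0441 with library totals).

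All 21 genes of fatty acid synthesis and SREBP-1 targets were measured, of which 2 fell and 1 rose, beside 14.0% of all genes, with a median log2 fold change of 0.091. *Scd2*, a stearoyl-CoA desaturase, was at 94.3, 72.6, 74.6 and 64.9 CPM in WT muscles and 30.8, 17.9, 19.5 and 24.4 CPM in KL-/- replicates 1 to 4. The gap between the genotypes was wider than the range within KL-/- muscle (log2 fold change −1.72 ± 0.18 (SE), FDR = 0.00226). *Fads1*, a desaturase of polyunsaturated fatty acids, was at 12.6 ± 3.31 and 7.30 ± 1.04 CPM (log2 fold change −0.79 ± 0.19 (SE), FDR = 0.0256), and passed in 3 of the 8 fits with 1 mouse left out. It lost its call without WT replicates 2 or 3 or KL-/- replicates 1, 3 or 4, at an FDR of 0.0534 to 0.0695. *Dgat2*, which makes triglyceride, was at 38.8 ± 6.36 and 72.2 ± 17.1 CPM (log2 fold change 0.90 ± 0.17 (SE), FDR = 0.0123). *Scd2* and *Dgat2* passed with any mouse left out.

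*Fasn*, fatty acid synthase, was at 53.6 CPM in KL-/- replicate 1, against 17.1 to 25.0 CPM in the other KL-/- muscles and 16.9 to 21.3 CPM in WT muscle. *Scd1*, the related desaturase, was at 115 CPM in the same muscle, 26.5 to 58.2 CPM in the other KL-/- muscles and 20.9 to 48.7 CPM in WT. That muscle also had the highest levels of the adipocyte genes *Adipoq* (9.90 CPM), *Cidec* (11.02 CPM), *Cfd* (47.5 CPM) and *Retn* (2.75 CPM). *Fabp4* was highest in KL-/- replicate 2, at 242 CPM against 222 CPM in KL-/- replicate 1. KL-/- replicate 2 was next highest in *Adipoq* (5.15 CPM) and *Cidec* (4.58 CPM), with *Fasn* at 19.9 CPM and *Scd1* at 58.2 CPM. The part of adipocytes was not tested. Neither *Fasn* (log2 fold change 0.62, FDR = 0.204) nor *Scd1* (1.02, FDR = 0.118) passed. Without KL-/- replicate 1 the log2 fold changes of *Fasn* and *Scd1* were 0.14 and 0.56. *Acacb*, the muscle acetyl-CoA carboxylase and the most abundant gene of the list, was at 488 ± 48.9 and 571 ± 69.1 CPM (log2 fold change 0.23, FDR = 0.163, and 0.0424 without KL-/- replicate 2).

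The branch that leads from farnesyl diphosphate to coenzyme Q, dolichol and prenylated proteins was represented by 17 genes. Of these 2 rose and 0 fell, with a median log2 fold change of −0.044. Over all genes 7.35% rose, and 14.0% passed in either direction. *Coq2*, which joins the side chain to the ring of coenzyme Q, was at 59.2 ± 5.55 and 74.5 ± 4.88 CPM (SD, n = 4; log2 fold change 0.33 ± 0.080 (SE), FDR = 0.0272). *Rabggtb*, a subunit of the enzyme that prenylates Rab proteins, was at 44.0 ± 2.26 and 53.0 ± 2.86 CPM (log2 fold change 0.27 ± 0.064 (SE), FDR = 0.0249). Scaled by library totals, these had log2 fold changes of 0.21 and 0.15 and an FDR of 0.0699 and 0.102, and the median of all genes moved to −0.13. With 1 mouse left out, *Coq2* passed in 4 and *Rabggtb* in 3 of 8 fits. *Coq2* did not pass without WT replicates 2 or 3 or KL-/- replicates 3 or 4, and *Rabggtb* not without WT replicates 1, 3 or 4 or KL-/- replicates 3 or 4.

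**Figure D4:**
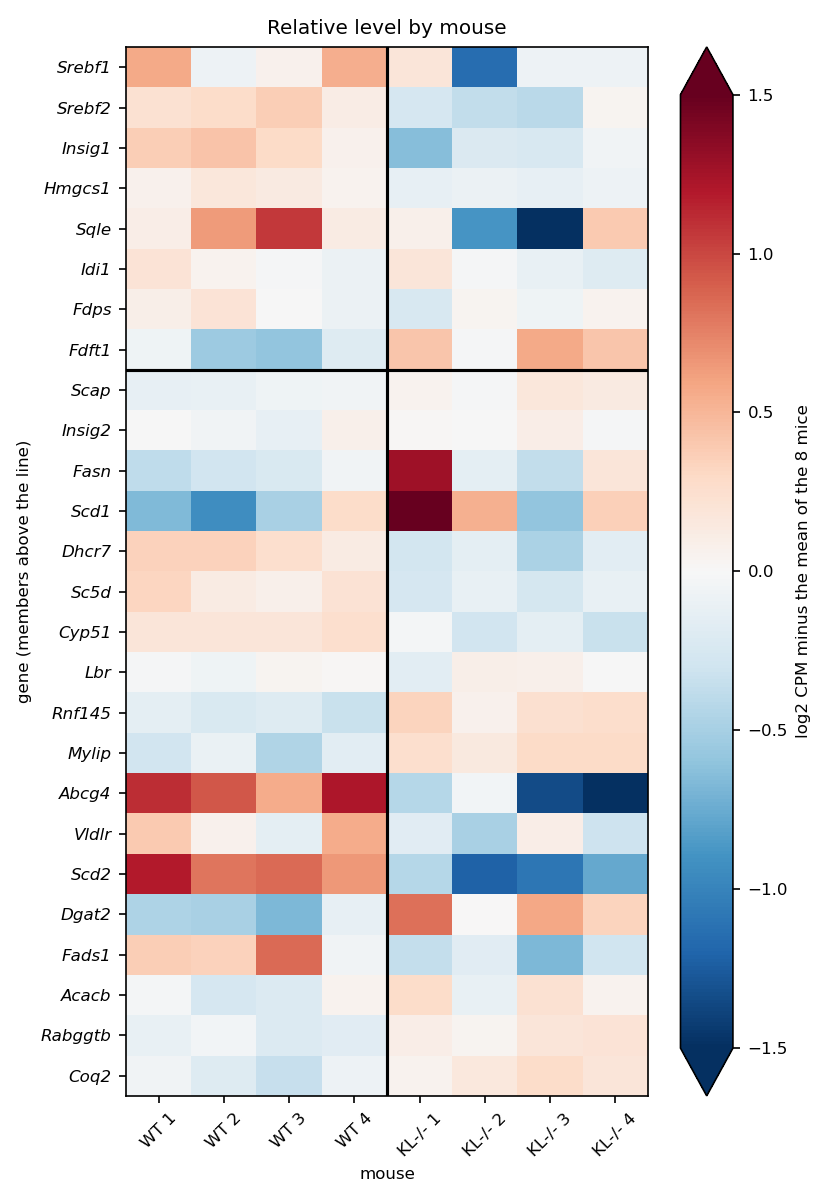
Log2 CPM minus the mean of the 8 mice (color, clipped at −1.5 and 1.5) for the 8 genes above the line and 18 other named pathway genes below it, by mouse (x axis). *Insig1*, *Dhcr7* and *Scd2* are blue in all 4 KL-/- mice, *Rnf145* and *Mylip* are red in all 4, and *Fasn* and *Scd1* are reddest in KL-/- replicate 1.

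Single muscles differed within a genotype. WT replicate 4 had the lowest WT value in 5 of the 8 genes, and KL-/- replicate 4 the highest KL-/- value in 5 of 8. Without WT replicate 2, WT replicate 3 or KL-/- replicate 3, 0 of the 8 genes passed edgeR's test, while 4 had an unadjusted p under 0.05 in each of these fits. Over all genes the number that passed fell to 780, 775 and 762 in the same fits. An unadjusted p under 0.05 was found there for 3336, 3204 and 3187 of all 12551 genes. The fit without KL-/- replicate 3 is also the comparison within 1 batch date. In it *Srebf2* was at −0.43, *Insig1* at −0.58, *Hmgcs1* at −0.20 and *Fdft1* at 0.62 on the log2 scale.

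As a description, the centred log2 CPM of the 6 genes other than *Srebf1* and *Srebf2* were averaged into a profile over the 8 muscles. Pearson's r with this profile was 0.94 for *Srebf2* and 0.48 for *Srebf1*, which did not enter it. *Sqle*, the most variable of the 6, had an r of 0.93, and *Fdft1* ran the other way at −0.61. The most similar genes outside the 8 were *Necap1* (0.98), *Gtf2h3* (0.94), *Ybx2* (0.94), *D8Ertd82e* (0.94) and *Stac* (0.93). The 8 points share the genotype difference and the library scaling, and the profile leans on the low counts of *Sqle*.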

How the data were processed

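RNA of 4 WT and 4 KL-/- TA muscles was sequenced from 100 ng per library. The methods describe mRNA libraries, and the public records total RNA. STAR was used by the authors to align reads to mm10, and they deposited counts per gene from featureCounts, as whole numbers without normalization. The submitters' processing notes also name FastQC and edgeR. The annotation version and strand setting are not given in the sources used here. Groups and replicates come from the sample labels, and 0 columns of other samples were present.

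The analysis used edgeR 4.0.16 in R 4.3.3, with TMM factors, genotype as the only term, the quasi-likelihood test and Benjamini-Hochberg adjustment over all 12551 genes, all kept by edgeR's default filter. Standard errors come from the test statistic. Log2 CPM used a prior count of 2. The tests were checked on simulated counts. Libraries within a genotype differed by a chi-square per gene of 9.92 or more, so none was counted as a duplicate. Alternatives were RLE factors, library totals, DESeq2 1.42.0, limma-voom (limma 3.58.1), at least 10 counts in every sample, no filter, the replicate number as a block, each mouse left out, and edgeR's earlier quasi-likelihood form, which was chosen after seeing the data. Positions and exon lengths are those of the deposited table on mm10, and overlapping genes are from GENCODE M21.

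The 8 genes and the gene lists were chosen with earlier results of these data known. Other genes named are *Scap*, *Insig2*, *Fasn* and *Scd1*, up to 6 genes per list with the lowest FDR under 0.05, the most abundant other gene of each list, and the 5 genes most like the mean profile of the enzymes and *Insig1*. *Ctsb* and *Akap9* were added after values had been seen. *Adipoq*, *Cidec*, *Cfd*, *Retn* and *Fabp4* were in the adipocyte marker list and were named singly after values had been seen. Some list genes that this rule names are not reported here on their own, and the counts and medians of the lists include them. P-values measure the spread between individual mice of this study, and the floor of 3 counts covers counting error only.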

Additional observations from a re-analysis of the deposited data

Results flagged for a closer look

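Among 26 named genes, each genotype's 4 values were checked for a value far from the other 3 by Dixon's criterion, in 52 groups. There was 1 such value, and about 1 in 20 groups gives one by chance. *Cyp51* in WT replicate 4 was at 9.57 CPM, above the other WT muscles at 9.06 to 9.11 CPM. It is not among the 8 genes.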

How the results depend on the processing

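The directions of all 8 genes were the same in every alternative run. *Srebf2*, *Insig1*, *Hmgcs1* and *Fdft1* passed under RLE factors, library totals, DESeq2, limma-voom, at least 10 counts in every sample and edgeR's earlier form. The fit with no filter held the same 12551 genes as the main fit, so it is no separate check. *Sqle* was not tested with at least 10 counts in every sample. Same-numbered mice had correlations of −0.15, 0.18, −0.37 and 0.017 in their deviations from the group means. These deviations are centred within each genotype, so the correlations cannot settle whether mice were paired. With the replicate block, 671 of all genes, 1 of the 8 (*Fdft1*) and 7 of the pathway list genes passed, beside 1759, 4 and 17 without it. The count for the pathway lists was 26 with library totals, 4 higher and 22 lower, against 6 and 11 with TMM factors. Among all genes, library totals gave 2619 genes, 18.8% of them higher against 52.4%, and DESeq2 gave 2456. With 1 mouse left out, the counts ran from 762 to 2755 for all genes, from 0 to 4 for the 8 genes and from 7 to 23 for the lists. Without KL-/- replicate 2 the count over all genes was highest. The chi-square per gene of this library was 84.4, 84.8 and 60.6 against KL-/- replicates 1, 3 and 4. Between those replicates it was 18.0 to 27.9. Signs turned only in genes that did not pass: with library totals *Insig2* to −0.070, *Lbr* to −0.11 and *Ctsb* to −0.066, and with 1 mouse left out *Lbr*, which ranged from −0.015 to 0.069. The causes of these shifts were not tested. Counts were as low as 9 for *Sqle* and 2 for *Abcg4* in single muscles.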
